A study of Mus musculus with 7 samples.

Results

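The baseline transcriptome of unmodified MS-1 cells was described from the 3 libraries whose titles and genotype label name them as control and wild type, out of 7 libraries in the series. MS-1 is an endothelial line made from mouse pancreatic islets and immortalised with a temperature-sensitive viral large T antigen. The other 4 libraries carry an added lipoprotein lipase gene and were not used. The control cells were grown in DMEM with no treatment named, RNA was taken with an RNeasy kit, and libraries were made with a stranded total RNA kit. All 3 libraries come from 1 line and carry the large T antigen by its origin. The labels do not say whether the 3 came from separate cultures, so the spread between them may be technical. They do not give the serum, the passage, the temperature or the density at harvest.

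Endothelial cells line every blood and lymph vessel, and they differ between vessel types. Arterial, venous, capillary, sinusoidal, brain and lymphatic endothelium each express their own junction, transport and signalling genes, and the capillaries of the islet carry fenestrae, small pores closed by a diaphragm. An endothelial line kept in culture has no blood flow, no mural cells and no endocrine neighbours, which act on many of these genes in tissue.

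Sense reads numbered 27386023, 28104402 and 26514501 in controls 1, 2 and 3, and between 13037 and 13183 genes had at least 10 reads. Levels are given as TPM, which divides reads by the exonic length of the gene and scales each library to 1000000, so that genes can be compared with each other. A gene was called expressed at 1 TPM or more in each of the 3 libraries, abundant at a mean of 100 TPM or more, and lacking with at most 3 reads over the 3 libraries together. Genes in between were called low. Of 49585 genes in the files 12238 (24.7%) were expressed. Among the 21734 protein-coding genes 10756 (49.5%) were expressed, 1854 (8.53%) were abundant and 8703 (40%) were lacking, with a median of 1.03 TPM. Counts given below for any gene list are to be read beside these shares. A total of 3 reads corresponds to 0.0366 CPM (reads scaled to a total of 1000000) over the pooled libraries, which is the limit that a count of 0 allows, for counting error only. Between pairs of libraries, Pearson's r of log2(TPM + 1) across the 12238 expressed genes was 0.996 to 0.997. This is a correlation across genes, which share library depth and are not independent replicates.

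The 5 markers that define endothelium here were all abundant. Pecam1, the junctional adhesion protein of endothelial cells, stood at 1483, 1482 and 1473 TPM in controls 1, 2 and 3, a mean of 1479 ± 5.49 TPM (SD, n = 3) and rank 52 among protein-coding nuclear genes. Cdh5, which encodes VE-cadherin, stood at 766, 771 and 785 TPM, a mean of 774 ± 9.83. Plvap, which forms the diaphragms of fenestrae and caveolae, stood at 544, 563 and 573 TPM, a mean of 560 ± 14.6. Thbd, the thrombomodulin that turns thrombin towards protein C activation, stood at 540, 511 and 523 TPM, a mean of 525 ± 14.3. Kdr, the main signalling receptor for VEGF, stood at 121, 123 and 121 TPM, a mean of 122 ± 1.44, at rank 1497. The order of the 5 levels was the same in each library, and no 2 neighbours in that order overlapped. Plvap and Thbd were closest, with a ratio of means of 1.07. Plvap had 27504 reads and Thbd 48277, so their order rests on the exonic lengths used. Overlap of libraries does not measure that uncertainty.

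**Figure D1:**
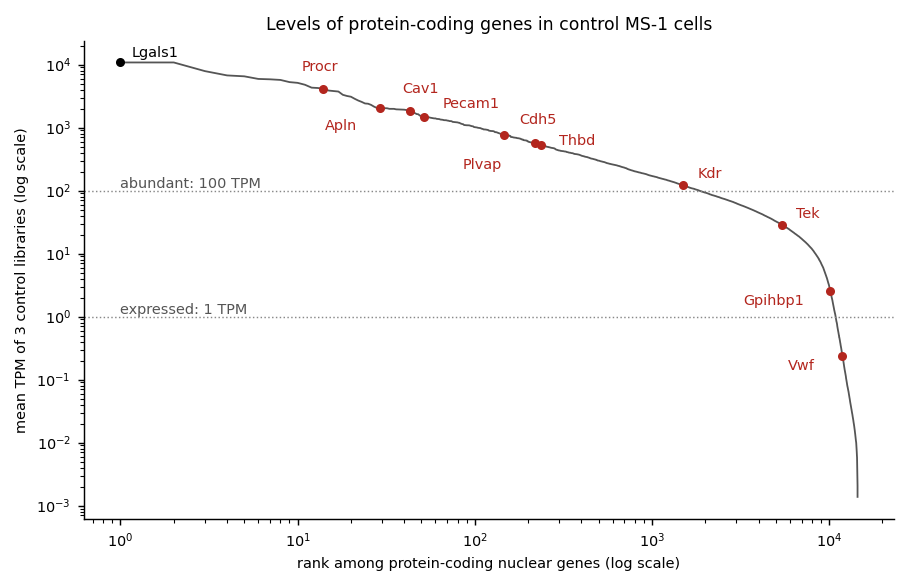
Mean TPM of the 3 control libraries (vertical axis, log scale) against rank (horizontal axis, log scale) for protein-coding nuclear genes with at least 1 read; red points mark endothelial genes, the black point Lgals1, and dotted lines 1 and 100 TPM. Procr stands at rank 14 and Pecam1 at rank 52, both far above 100 TPM, whereas Vwf lies below 1 TPM.

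Of 30 genes of general endothelial identity 27 were expressed, beside 49.5% of protein-coding genes, and 21 were abundant, with a list median of 206 TPM. The list holds the markers Pecam1, Cdh5, Plvap, Thbd and Kdr described above, all of them abundant. It was also chosen with earlier results of these data known. Its shares therefore describe the list and do not test endothelial identity. After Pecam1 the highest were Ly6a at 1374 ± 38.2 TPM, Cd34, a sialomucin of vessels and stem cells, at 1227 ± 5.96, and Nos3, the endothelial nitric oxide synthase, at 845 ± 23.4. Nos3 stood at 514 TPM when reads of both orientations were counted. Ly6a and Ly6c1 have closely similar copies in the genome, so their division of reads is uncertain. The low members were Vwf, the carrier of platelet adhesion stored in endothelial granules, and Mmrn2, a matrix protein of endothelium. Vwf had 32, 36 and 28 reads, a mean of 0.241 ± 0.0235 TPM. Mmrn2 had 0.184 ± 0.0565 TPM. Cldn5, the claudin of endothelial tight junctions, was the lacking member, with 1, 0 and 0 reads. At 3 reads it would have stood at 0.0858 TPM. The members ranged from less than that to 1479 TPM, while the 3 libraries of any 1 abundant member lay close together.

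**Figure D2:**
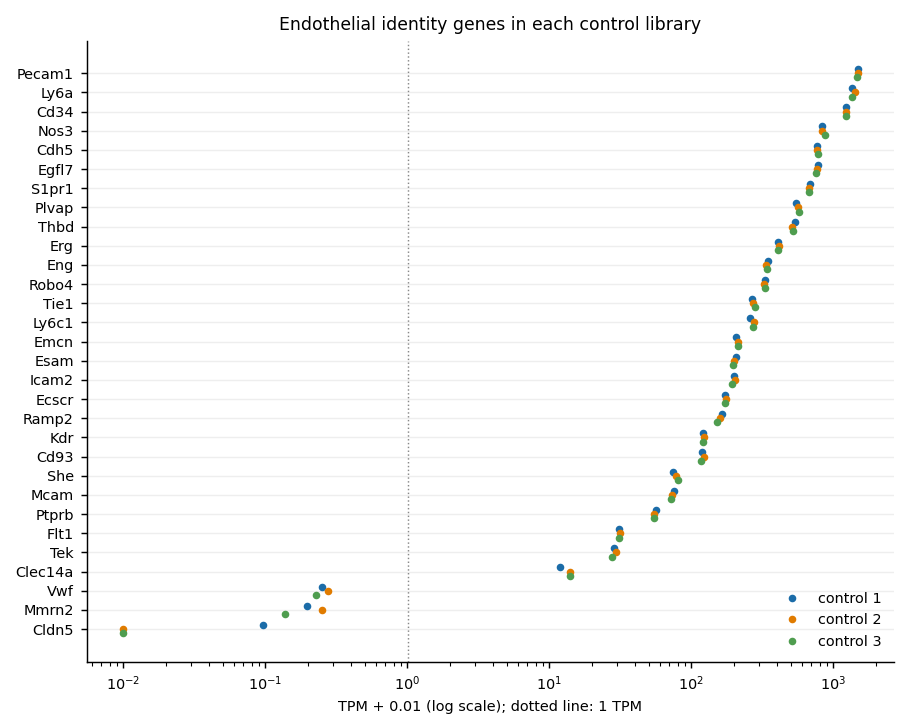
TPM + 0.01 (log scale) of each of 30 endothelial identity genes, ordered by mean, with 1 point for each control library; the dotted line marks 1 TPM. The 3 points lie close together for the 27 expressed genes, and Vwf, Mmrn2 and Cldn5 lie to the left of the line.

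Promoter windows are shown for 3 abundant genes and 1 lacking gene of endothelium, so that the control region of a gene the cells lack can be read beside those of genes they hold at high level. Each holds 250 bases before and 50 after the start of transcription in the RefSeq table of build GRCm38.p6, written in the direction of the gene. Capitals mark the letters TGAGTCA (the core bound by AP-1 factors) or GGGCGG (a GC box), on the strand shown or as their complement on the other.
Procr, chr2:155750967-155751266, plus strand: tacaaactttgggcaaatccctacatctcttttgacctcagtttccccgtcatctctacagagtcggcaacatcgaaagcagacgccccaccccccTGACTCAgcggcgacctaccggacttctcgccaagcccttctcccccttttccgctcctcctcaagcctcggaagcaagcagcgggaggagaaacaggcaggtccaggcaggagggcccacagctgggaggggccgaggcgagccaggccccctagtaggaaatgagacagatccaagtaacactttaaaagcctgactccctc
Kdr, chr5:75978406-75978705, minus strand: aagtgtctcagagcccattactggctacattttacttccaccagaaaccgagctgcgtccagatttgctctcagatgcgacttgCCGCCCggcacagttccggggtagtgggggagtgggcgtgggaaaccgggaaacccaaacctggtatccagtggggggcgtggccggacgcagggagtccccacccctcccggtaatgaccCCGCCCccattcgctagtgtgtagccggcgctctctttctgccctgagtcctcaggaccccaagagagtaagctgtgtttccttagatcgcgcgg
Erg, chr16:95586544-95586843, minus strand: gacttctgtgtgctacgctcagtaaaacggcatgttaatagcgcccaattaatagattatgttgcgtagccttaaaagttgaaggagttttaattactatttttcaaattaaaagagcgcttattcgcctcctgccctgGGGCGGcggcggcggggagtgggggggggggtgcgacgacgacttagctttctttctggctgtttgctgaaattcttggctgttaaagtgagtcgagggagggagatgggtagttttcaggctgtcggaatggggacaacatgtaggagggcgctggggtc
Cldn5, chr16:18776597-18776896, plus strand: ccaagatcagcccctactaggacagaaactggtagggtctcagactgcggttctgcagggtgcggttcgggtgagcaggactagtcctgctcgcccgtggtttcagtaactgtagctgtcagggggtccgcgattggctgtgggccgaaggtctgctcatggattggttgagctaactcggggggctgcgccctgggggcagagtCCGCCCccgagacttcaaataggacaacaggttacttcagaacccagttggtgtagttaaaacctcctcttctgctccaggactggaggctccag
The window of Procr, the endothelial protein C receptor, held 1 match to TGAGTCA, on the opposite strand with its left end at position -154 from the start. The window of Kdr held 2 matches to GGGCGG on the opposite strand, at -166 and -45. The window of Erg, an ETS-family transcription factor, held 1 on the same strand, at -111. The window of Cldn5, a lacking gene, also held 1 on the opposite strand, at -45. None of the 4 windows held TATAAA, the letters of the TATA box, or CCGGAAG, a form of the ETS site, which says only that these letters are not in these windows. No 2 of the matches overlapped.

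Across 16746 promoter windows, 77.2% of 21689 protein-coding nuclear genes with a symbol of their own, GGGCGG was present in 48.1%, CCGGAAG in 12.3%, TATAAA in 13% and TGAGTCA in 4.59%, on either strand. Among 1505 abundant genes the shares were 70.6% for GGGCGG, 22.7% for CCGGAAG, 8.17% for TATAAA and 3.92% for TGAGTCA, with a median of 23 CG dinucleotides. The 7174 genes expressed below 100 TPM held GGGCGG in 67.0%, CCGGAAG in 19.7%, TATAAA in 5.78% and TGAGTCA in 3.23%, with a median of 21 CG dinucleotides. Fewer than 80% of all genes, of low genes, of lacking genes and of the identity list had a window, so a comparison of the expressed classes with any of these is void. The shares over all windows are given only as how often each motif occurs in a window of this length.

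Among protein-coding nuclear genes, the highest 20 included genes of ribosomal proteins, elongation factors, ferritin and the cytoskeleton, and 2 vascular genes. Lgals1, which encodes a secreted galectin, was the highest of them at 10803 ± 312 TPM, level with Eef1a1, a translation elongation factor, at 10801 ± 97.4. The libraries of these 2 genes overlapped. Fth1 and Ftl1, the ferritin subunits, stood at 6728 ± 204 and 3312 ± 55.1 TPM. Ftl1 stood at 1149 TPM with reads of both orientations. The cytoskeletal genes Actb and Vim stood at 6508 ± 191 and 5268 ± 144 TPM, and S100a6, a calcium-binding protein, at 4247 ± 99.99. Of the other genes among the highest 20, 9 encode ribosomal proteins, among them Rplp1, Rplp0, Rps12, Rpl8, Rpl32, Rps15, Rpl4 and Rps2, Hsp90ab1 a chaperone and Eef2 an elongation factor. Genes of ribosomal proteins and elongation factors have many processed copies, so their reads may have been divided. The highest 10 genes held 9.68% of all TPM, the highest 100 held 28.8% and the highest 1000 held 61.0%.

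Vascular genes within the highest 20 were Ctla2a and Procr. Ctla2a, a cathepsin L inhibitor and venous list member, stood at 5778, 6091 and 5879 TPM, a mean of 5916 ± 160 at rank 6. It has a near-identical neighbour, Ctla2b, so its level is uncertain. Procr stood at 4318, 4091 and 3974 TPM, a mean of 4128 ± 175 at rank 14. Control 1 was the highest of the 3 for Procr and the lowest for Ctla2a. Further down, and named after their values were seen, Stfa3, a stefin A gene with near-identical copies, stood at 927 ± 58.7 TPM, Hmox1, the inducible haem oxygenase, at 759 ± 6.86, Tnfrsf12a, the receptor of TWEAK, at 1364 ± 52.0, and Krt80, an epithelial keratin, at 530 ± 0.854.

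Markers of each vessel type were present in part, and no list of a vessel type was expressed as a whole. Of 20 arterial genes 9 were expressed, 1 was abundant and 8 were lacking, or 40%, the same share as among protein-coding genes. Of 16 venous genes 9 were expressed and 3 were abundant. Of 20 capillary genes 8 were expressed and 4 were abundant. The counts were 3 of 14 for lymphatic, 4 of 17 for sinusoidal and 5 of 18 for blood-brain barrier genes. The arterial and venous shares, 45% and 56.2%, were near the 49.5% of protein-coding genes, and the capillary, lymphatic, sinusoidal and blood-brain barrier shares were below it. Their medians were 0.358 TPM for arterial, 3.69 for venous, 0.848 for capillary, 0.0579 for lymphatic, 0.0344 for sinusoidal and 0.125 for blood-brain barrier genes, against 1.03 over protein-coding genes.

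**Figure D3:**
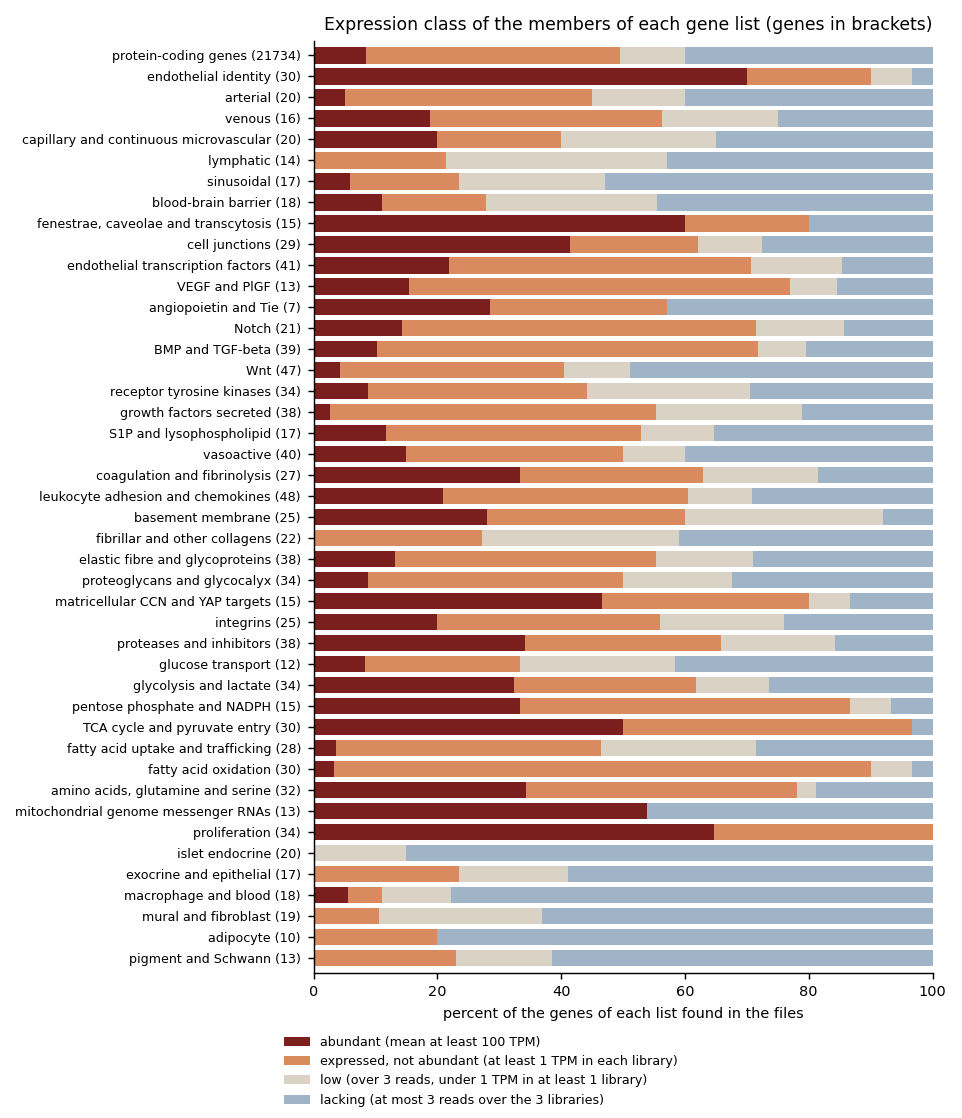
Percent of the genes of each list (horizontal axis) that were abundant, expressed below 100 TPM, low or lacking in the 3 control libraries; the number of genes follows each list's name and the top bar gives all 21734 protein-coding genes. Endothelial identity, fenestrae and caveolae, TCA cycle and proliferation lists have long dark bars, and islet endocrine genes have none.

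In the arterial list Cxcl12, a chemokine, was the highest at 305 ± 9.88 TPM. The Notch ligands Jag1 and Dll4 stood at 28.0 ± 1.2 and 25.7 ± 2.33 TPM, with libraries that overlapped, the vasoconstrictor precursor Edn1 at 25.3 ± 2.34 and the ephrin Efnb2 at 15.8 ± 0.151. Gja4 and Gja5, which encode connexins of arteries, Sox17, an arterial transcription factor, and Bmx, a kinase gene, had 0 reads in each library. For Gja5 that allows a level of up to 0.0211 TPM and for Sox17 up to 0.0254. Hey1, a Notch target factor, had 1, 0 and 1 reads.

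Venous genes other than Ctla2a included Selp, the P-selectin of endothelial granules, at 171 ± 3.38 TPM and Ephb4, the venous receptor for Efnb2, at 116 ± 2.23. Ephb4 stood above Efnb2 in each library. Vcam1, a leukocyte adhesion molecule, stood at 35.8 ± 1.12, the interleukin 1 receptor Il1r1 at 26.4 ± 1.47 and Nr2f2, the transcription factor of venous identity, at 19.6 ± 0.109. The venous genes Ackr1, Lrg1 and Slc38a5 had 0 reads, and the apelin receptor Aplnr had 1, 1 and 0.

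Among capillary genes, Apln, the apelin peptide of tip cells, was the highest at 2043 ± 12.4 TPM. Plvap and Kdr followed it with Car8, a carbonic anhydrase-like protein, at 129 ± 2.84 and Sgk1, a kinase, at 85.0 ± 2.31. Gpihbp1, which carries lipoprotein lipase across capillary endothelium, stood at 2.58 ± 0.171 TPM. Cd36, a fatty acid transporter of capillaries, had 0, 1 and 0 reads, which is below the 0.0338 TPM that 3 reads would give. Meox2, Aqp7 and Car4 had 0 reads.

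Lymphatic and sinusoidal lists shared Lyve1, a hyaluronan receptor, at 60.7, 60.4 and 61.7 TPM, a mean of 60.9 ± 0.692. The other expressed lymphatic genes were Flt4, the receptor for VEGF-C, at 32.9 ± 0.382 TPM and Pdpn at 5.44 ± 0.911. Prox1, the transcription factor that sets lymphatic identity, had 0, 3 and 0 reads, and Ccl21a and Mmrn1 had 0. Stab1, a scavenger receptor of sinusoids, was abundant at 278 ± 6.68 TPM, whereas its relative Stab2 had 0.0599 ± 0.0310. Ehd3 and Oit3 stood at 4.85 ± 0.413 and 3.83 ± 0.575 TPM, and Gata4, the factor of liver sinusoids, at 0.188 ± 0.0852. Clec4g, Fcgr2b, Maf and Wnt2 had 0 reads.

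Most of the blood-brain barrier genes that were expressed encode transporters. Slc2a1, the main glucose transporter, stood at 221 ± 4.38 TPM, Slc7a5, a large amino acid transporter, at 103 ± 2.91, Slc16a1, a lactate transporter, at 87.5 ± 0.809, and the efflux pump Abcg2 at 25.8 ± 0.277. Itm2a was the other expressed member at 10.3 ± 0.315. Cldn5 was at 1 read in all, Mfsd2a, the lipid transporter that limits transcytosis, at 2, and the transporters Slco1a4 and Slco1c1 and the factors Lef1 and Foxq1 at 0.

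Genes of caveolae and fenestrae were the vessel-wall list with the highest median after endothelial identity, at 193 TPM. Of 15 genes 12 (80%) were expressed and 9 (60%) abundant, beside 49.5% and 8.53% of protein-coding genes. Cav1, the caveolar coat protein, stood at 1836 ± 17.5 TPM and held 90.5 ± 0.370% of the summed TPM of the 3 caveolins. Cav2 stood at 193 ± 6.86 TPM and Cav3, the muscle form, had 0 reads. Among cavins, which shape caveolae, Ptrf stood at 733 ± 20 and Prkcdbp at 689 ± 33.6 TPM, with libraries that overlapped, Sdpr at 208 ± 1.21, and Murc, the muscle form, had 1 read. The dynamin-like ATPases Ehd4 and Ehd2, which hold caveolae at the membrane, stood at 554 ± 3.67 and 395 ± 5.39 TPM.

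Of 29 junction genes 18 (62.1%) were expressed and 12 (41.4%) were abundant, beside 49.5% and 8.53% of protein-coding genes. Their median was 25.5 TPM. The adherens junction set was present with Cdh5, Ctnna1 at 590 ± 9.46 TPM and Ctnnb1, the beta-catenin gene, at 473 ± 5.83. Cgnl1, a cingulin relative that links junctions to the cytoskeleton, stood at 512 ± 10.8 and F11r, which encodes a junctional adhesion molecule, at 319 ± 10.9. Chosen after their values were seen, the scaffold gene Tjp1 stood at 118 ± 2.33, Cldn12 at 99.2 ± 1.51, and Ocln, which encodes occludin, at 0.305 ± 0.0741 TPM. Jam3 stood at 56.8 ± 1.34, or at 32.7 with reads of both orientations. Cldn5, Cldn1, Cldn3 and the epithelial cadherin Cdh1 were lacking.

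Of 41 transcription factors listed for endothelium 29 (70.7%) were expressed and 9 (22.0%) were abundant, beside 49.5% and 8.53% of protein-coding genes. Their median was 19.6 TPM. Erg led at 406, 412 and 409 TPM, a mean of 409 ± 2.83. Bcl6b, a repressor of endothelium, stood at 302, 311 and 327 TPM, a mean of 313 ± 13. Klf2, the factor that shear stress induces, stood at 247, 256 and 237, a mean of 247 ± 9.09. Fli1, another ETS factor, stood at 157 ± 0.807 and the homeobox gene Meox1 at 155 ± 2.45. Its relative Meox2 had 0 reads. The lacking factors also included Sox17, Gata6, Prox1, Etv2 and Pdx1. Pdx1 is a factor of islet beta cells rather than of endothelium, and it is counted among the 41. The SOXF factors Sox7 and Sox18, named after their values were seen, stood at 89.6 ± 0.535 and 63.2 ± 5.32 TPM beside 0 reads of Sox17.

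VEGF ligands act on Kdr, Flt1 and Flt4 with neuropilins as co-receptors. Of 13 genes of this pathway 10 (76.9%) were expressed, beside 49.5% of protein-coding genes, with a median of 9.32 TPM. Kdr made up 60.1 ± 0.0978% of the summed receptor and co-receptor TPM, Flt4 16.3 ± 0.212%, Flt1, a decoy receptor, 15.3 ± 0.0674% and Nrp1 5.33 ± 0.266%. Nrp2 was the lowest at 6.10 ± 0.429 TPM, and no neighbours in this order overlapped. Flt4 and Flt1 were close, with a ratio of means of 1.06. Flt4 had 6702 reads and Flt1 10344, so their order rests on the exonic lengths used. Vegfb made up 86.5 ± 0.416% of the ligand TPM at 107 ± 1.44 TPM. Vegfa, the ligand of Kdr, stood at 9.32 ± 0.311, Pgf at 5.98 ± 0.112 and Vegfd at 1.45 ± 0.280. Vegfc, the ligand of Flt4, had 0 reads, which allows up to 0.0495 TPM. Plcg1, a phospholipase that acts after Kdr, stood at 75.2 ± 0.675 TPM.

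In the angiopoietin system 4 of 7 genes (57.1%) were expressed, near the 49.5% of protein-coding genes. Tie1, the orphan receptor, stood at 272 ± 6.90 TPM and held 90.5 ± 0.487% of the TPM of the Tie receptors. Tek, the receptor that binds the ligands, stood at 28.6 ± 1.07. Angpt2, which endothelium makes itself, stood at 123, 129 and 132 TPM, a mean of 128 ± 4.26. Angpt1, the ligand made by mural cells, and Angpt4 had 0 reads. Ptprb, the phosphatase that acts on Tek, stood at 55.2 ± 1.02.

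Notch receptors and ligands were present in the same libraries, and 15 of 21 genes of the pathway (71.4%) were expressed, beside 49.5% of protein-coding genes. Notch1 stood at 69.8 ± 2.22 TPM and held 59.6 ± 0.421% of the receptor TPM, Notch4, the endothelial form, 34.8 ± 0.166%, and Notch2 and Notch3 stood at 5.37 ± 0.0834 and 1.21 ± 0.0961 TPM. Among ligands Dll1 stood at 43.9 ± 1.39 TPM, above Jag1 and Dll4 in each library, Jag2 at 0.845 ± 0.200 and Dll3 at 0.0710 ± 0.0246. The glycosyltransferase Mfng stood at 160 ± 1.39 and the protease Adam10 at 151 ± 0.293. The target genes differed. Nrarp, a feedback inhibitor, stood at 238 ± 5.92 TPM, or 57.3 with reads of both orientations. Hes1, named after its value was seen, stood at 25.2 ± 0.864, Hey1 and Heyl were lacking, and Hey2 had 0.0707 ± 0.0168 TPM.

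The BMP and TGF-beta list had 28 of 39 genes (71.8%) expressed, beside 49.5% of protein-coding genes, with a median of 13.6 TPM. The inhibitor Fst, which binds activins, led at 1521, 1424 and 1434 TPM, a mean of 1460 ± 53.6, with control 1 the highest. Bmp4, a ligand, stood at 597, 577 and 573, a mean of 582 ± 13. Eng, the endothelial co-receptor, stood at 342 ± 4.68 and Acvrl1, its partner receptor, at 59.1 ± 1.72. Id1, the main BMP target, stood at 189 ± 5.81 and held 70.0 ± 0.444% of the TPM of the ID genes. The receptor Bmpr1a, which binds Bmp4, had 1, 1 and 3 reads, and Bmpr1b had 0. The ligands Bmp10 and Gdf2, which reach endothelium through the blood, had 0 reads, as did Bmp7 and Nog. Bmpr2 and Acvr1, named after their values were seen, stood at 12.6 ± 0.511 and 24.9 ± 0.719.

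In the Wnt list 19 of 47 genes (40.4%) were expressed and 23 (48.9%) were lacking, beside 49.5% and 40.0% of protein-coding genes. Besides Ctnnb1 the highest were the co-receptor Lrp5 at 125 ± 1.74 TPM, Adgra2, which detects brain Wnt ligands, at 75.1 ± 1.70, the co-receptor Lrp6 at 45.3 ± 1.87 and the receptor Fzd4 at 26.9 ± 0.611. Wnt5a, at 25.6 ± 0.234, was the highest of the Wnt ligands listed, chosen after its value was seen. Wnt3, Wnt2, Wnt9b, Wnt10a and Wnt6 had 0 reads. The target Axin2 had 0.103 ± 0.0459 TPM and the factors Lef1 and Tcf7 were lacking.

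Among 34 further receptor tyrosine kinases 15 (44.1%) were expressed, near the 49.5% of protein-coding genes. Mertk, which clears dying cells, led at 190 ± 5.69 TPM, with Ephb4, Epha2 at 111 ± 3.18, Ryk at 56.7 ± 1.87 and Met, the receptor of hepatocyte growth factor, at 40.3 ± 1.04. Kit, named after its value was seen, stood at 33.0 ± 0.753. Egfr had 2, 1 and 0 reads, and Erbb4, Fgfr2 and Fgfr4 had 0. Of 38 secreted growth factors 21 (55.3%) were expressed, also near that share. After Apln came Manf at 91.0 ± 1.29, Kitl, the ligand of Kit, at 86.3 ± 0.341, Pdgfa at 81.0 ± 2.28 and Ereg, an EGF-family ligand, at 79.2 ± 3.47. Hgf, Il6, Csf2 and Ptn had 0 reads and Fgf2 had 3. Hbegf, another EGF-family ligand named after its value was seen, stood at 63.7 ± 3.26 beside the 3 reads of Egfr.

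Several ligands stood far above the genes of their receptors. Apln stood at 2055, 2030 and 2043 TPM beside 2 reads of Aplnr, Bmp4 beside 5 reads of Bmpr1a, and Edn1 beside 0 reads of the endothelin receptors Ednra and Ednrb. Other pairs were both present, such as Plau with Plaur and Angpt2 with Tek. Cxcl12 stood beside 3.53 ± 0.908 TPM of Cxcr4 and 42.9 ± 2.67 of Ackr3, both of which bind it. Csf1 at 74.4 ± 4.76 TPM stood beside 0 sense reads of Csf1r, which had 115, 135 and 126 reads of the other orientation. The pairs shown were chosen with these values known.

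**Figure D4:**
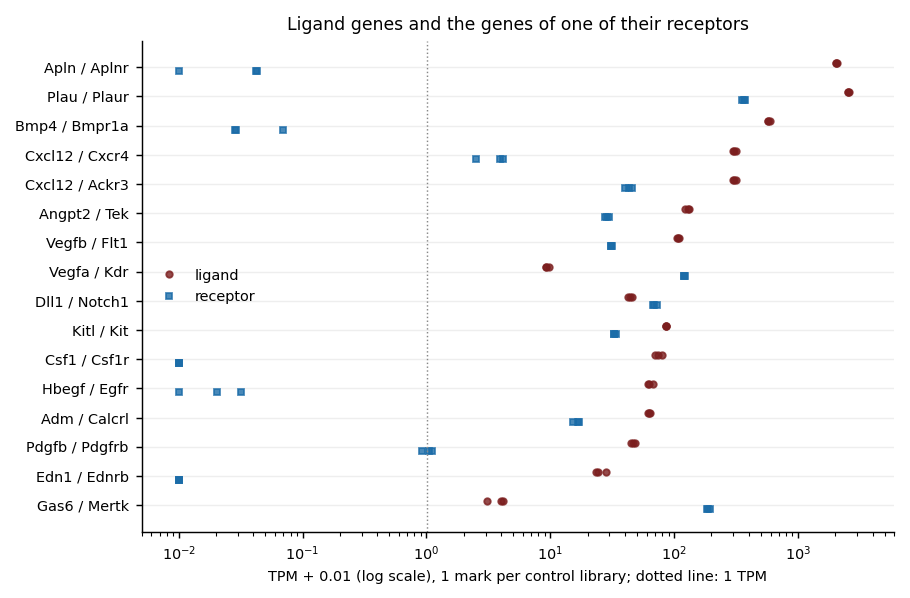
TPM + 0.01 (log scale) of ligand genes (circles) and the gene of 1 of their receptors (squares), in 16 pairs, with 1 mark for each control library; the dotted line marks 1 TPM. Squares of Aplnr, Bmpr1a, Csf1r, Egfr and Ednrb lie below 0.1 TPM, while Kdr, Notch1 and Mertk stand above the ligands beside them.

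Sphingosine 1-phosphate, a lipid of blood, acts on endothelium through G protein-coupled receptors. S1pr1 stood at 686, 674 and 672 TPM and held 99.1 ± 0.0125% of the TPM of the 5 receptors. S1pr2 stood at 5.45 ± 0.212, S1pr4 at 1.02 ± 0.228, and S1pr3 and S1pr5 had 0 reads. Spns2, the exporter, stood at 153 ± 2.94 TPM and Plpp3, a lipid phosphatase, at 65.5 ± 2.41. Lpar6, a receptor of lysophosphatidic acid, stood at 45.1 ± 0.202. Of the kinases that make the lipid, Sphk2 stood at 21.4 ± 0.501 and Sphk1 had 3 reads. In all 9 of 17 genes of this list (52.9%) were expressed, near the 49.5% of protein-coding genes.

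Of 40 vasoactive genes 20 were expressed, with a median of 1.02 TPM, a share and a median near the 49.5% and 1.03 TPM of protein-coding genes. Besides Apln and Nos3 the highest were Ramp2, a partner of the adrenomedullin receptor, at 158 ± 6.21 TPM, Ddah2, which breaks down an inhibitor of nitric oxide synthases, at 151 ± 5.25, and Ece1, which cuts the endothelin precursor, at 145 ± 2.69. The soluble guanylate cyclase genes Gucy1a3 and Gucy1b3, which respond to nitric oxide in smooth muscle, had 1 and 0 reads. Edn2, Ednra and Ednrb had 0.

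The coagulation and fibrinolysis list held 17 expressed genes of 27 (63.0%) and 9 abundant (33.3%), beside 49.5% and 8.53% of protein-coding genes. Its median was 26.8 TPM. Its anticoagulant receptors were Procr and Thbd, which work together to activate protein C. Plau, the urokinase that activates plasminogen, stood at 2516, 2595 and 2554 TPM, a mean of 2555 ± 39.4, and its receptor Plaur at 364 ± 9.66. Anxa2 and S100a10, which together bind plasminogen at the surface, stood at 1546 ± 18.3 and 1311 ± 18.3. Tissue factor, F3, was low at 0.513 ± 0.0584, whereas F8, the factor that Vwf carries in blood, stood at 92.4 ± 3.22 TPM. F10, Adamts13 and Nt5e were lacking, with 0, 0 and 1 reads.

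Of 48 genes of leukocyte adhesion and chemokines 29 (60.4%) were expressed and 10 (20.8%) abundant, beside 49.5% and 8.53% of protein-coding genes. Their median was 9.13 TPM. Cd34 was followed by Cd44, the hyaluronan receptor, at 378 ± 14 TPM, Cxcl12, Icam2 at 198 ± 4.68 and Selp. The cytokine-induced adhesion genes Sele, Vcam1 and Icam1, the first and last named after their values were seen, stood at 48.5 ± 4.24, 35.8 ± 1.12 and 14.9 ± 0.601. Il6, Il1b, Ccl7, Ccl20, Madcam1 and Glycam1, the last 2 of lymph node venules, had 0 reads.

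The basement membrane is the sheet of collagen and laminin under the endothelium. Of 25 genes 15 (60%) were expressed and 7 (28%) abundant, beside 49.5% and 8.53% of protein-coding genes, with a median of 10.4 TPM. Sparc, a collagen-binding protein, led at 1934 ± 26.8 TPM. The collagen chains Col4a1 and Col4a2, which assemble together, stood at 753 ± 5.63 and 547 ± 4.18 and made up 57.5 ± 0.130% and 41.7 ± 0.0878% of the type IV chain TPM. Col4a5 stood at 10.4 ± 0.563, Col4a6 at 0.207 ± 0.0444, and Col4a3 and Col4a4 had 1 and 0 reads. Among laminin alpha chains Lama5 held 74.0 ± 0.911% and Lama4 25.2 ± 0.706%, the chains of endothelial laminins, and Lama1, Lama2 and Lama3 were all below 1 TPM in mean. Lamb2 stood at 60.2 ± 1.41 TPM, Lamb1 at 31.1 ± 0.912 and Lamb3 at 4 reads. Among gamma chains Lamc1 stood at 349 ± 1.41 TPM and Lamc3 at 0.200 ± 0.0233. The linker Nid1 stood at 242 ± 7.78 and its relative Nid2 at 0.788 ± 0.0779.

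Fibrillar and other collagens were mostly low or lacking, with 6 of 22 (27.3%) expressed, none abundant and a median of 0.0615 TPM. Among protein-coding genes 49.5% were expressed. Col5a1 led at 78.4 ± 3.03, then Col8a1, a collagen of vessel walls, at 41.4 ± 0.470, Col7a1 at 8.44 ± 0.442, Col6a1 at 3.68 ± 0.396 and Col27a1 at 3.19 ± 0.164. Col1a2 and Col5a2 had 2 reads each, and Col6a2 and Col14a1 had 0. Col1a1, the main fibroblast collagen, had 10 reads, or 0.0615 ± 0.0282 TPM.

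Other matrix genes included secreted regulators at high level. Thbs1, the thrombospondin that limits vessel growth, stood at 1520, 1409 and 1332 TPM, a mean of 1420 ± 94.2, with no order among replicates implied. Igfbp4 stood at 531 ± 11.1, Esm1, a proteoglycan of tip cells, at 318 ± 4.03, Tinagl1 at 179 ± 6.35 and Fn1, the fibronectin gene, at 107 ± 2.67. Igfbp7, a marker of many endothelia, had 1 read, and Mgp, Lox and Postn had 1, 0 and 0. In all 21 of 38 of these genes (55.3%) were expressed, near the 49.5% of protein-coding genes. Of 34 proteoglycan and glycocalyx genes 17 (50%) were expressed, a share level with that of protein-coding genes. The highest were Emcn, an endothelial sialomucin, at 211 ± 3.64, Hspg2, the perlecan gene, at 166 ± 3.01, and Podxl at 145 ± 0.800. Ext2 and Hyal2 followed at 73.3 ± 0.869 and 63.2 ± 1.34 TPM. Dcn, Lum, Acan, Fmod and Gpc1 had 0 reads.

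Of 15 matricellular and YAP target genes 12 (80%) were expressed and 7 (46.7%) abundant, beside 49.5% and 8.53% of protein-coding genes. Their median was 75 TPM. Cyr61 and Ctgf, secreted targets of YAP, stood at 459 ± 21.8 and 164 ± 3.72, Ankrd1 at 333 ± 7.0, and the co-activator Wwtr1 at 167 ± 2.13 and its binding partner Amotl1 at 166 ± 2.30. Among 25 integrins, 14 (56%) were expressed, near the share of protein-coding genes. Itgb1, the common beta chain, stood at 794 ± 10.5 TPM with its partners Itga3 at 335 ± 4.38, Itga5, the fibronectin receptor chain, at 267 ± 0.565, Itga7 at 148 ± 4.40 and Itga6 at 130 ± 4.04. Itga9 and Itgb6 were lacking.

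Of 38 proteases and inhibitors 25 (65.8%) were expressed and 13 (34.2%) abundant, beside 49.5% and 8.53% of protein-coding genes. Plau was the highest. Serpinh1, the collagen chaperone, stood at 760 ± 20.7 TPM, Cst3, a cathepsin inhibitor, at 433 ± 15.3, the lysosomal protease Ctsl at 385 ± 9.36 and Timp2, an inhibitor of metalloproteinases, at 350 ± 4.03. Timp1 stood at 251 ± 1.34, Timp3 at 173 ± 10.6 or 109 with reads of both orientations, and Timp4 at 2 reads. The metalloproteinases Mmp7, Mmp8, Mmp10 and Mmp12 had 0 reads and Mmp9 had 3. Mmp14, the membrane form, named after its value was seen, stood at 73.6 ± 0.547.

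Most genes of the shared core metabolic routes were expressed. Of 30 genes of the TCA cycle and pyruvate entry 29 were expressed and 15 were abundant, with a median of 101 TPM. Of 30 fatty acid oxidation genes 27 were expressed, with 1 abundant and a median of 36.6. Of 34 glycolysis and lactate genes 21 were expressed and 11 were abundant, with a median of 11.3. The pentose phosphate and NADPH list had 13 of 15 expressed and a median of 38.8, and the amino acid list 25 of 32 with 41.3. These medians compare with 1.03 TPM over all protein-coding genes, of which 49.5% were expressed and 8.53% abundant.

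In glycolysis the glucose transporter Slc2a1 held 88.2 ± 0.403% of the TPM of the 10 facilitative transporters. Slc2a9, Slc2a8 and Slc2a10 stood at 15.6 ± 0.448, 9.50 ± 0.282 and 4.25 ± 0.403 TPM, Slc2a4, the insulin-regulated form, at 0.174 ± 0.0604, and Slc2a2, the beta cell form, had 2 reads. Slc2a3 and Slc2a5 had 1 read each, Slc2a12 had 0 and Slc2a6 had 4. The sodium-coupled Slc5a1 stood at 0.455 ± 0.134. Aldoa stood at 1328 ± 16.6 TPM, Pkm at 1292 ± 27.7, Gapdh at 990 ± 6.18, Ldha at 785 ± 15.1 and Tpi1 at 752 ± 24.8. Gapdh has many processed copies. Most steps were held largely by a single isoform. Hk1 held 84.3 ± 0.820% of hexokinase TPM, Pfkl 69.3 ± 0.727% of phosphofructokinase TPM, Aldoa 99.9 ± 0.00418% of aldolase TPM, Eno1 71.2 ± 0.634% of enolase TPM and Ldha 99.9 ± 0.0370% of lactate dehydrogenase TPM. Pfkfb3, an activator of glycolysis studied in tip cells, stood at 12.4 ± 0.926 TPM and overlapped with Pfkfb1 at 10.3 ± 0.989, and Pfkfb4 overlapped with Pfkfb2. Hk3, Pklr, Gapdhs, Pgk2 and Ldhc had 0 reads.

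**Figure D5:**
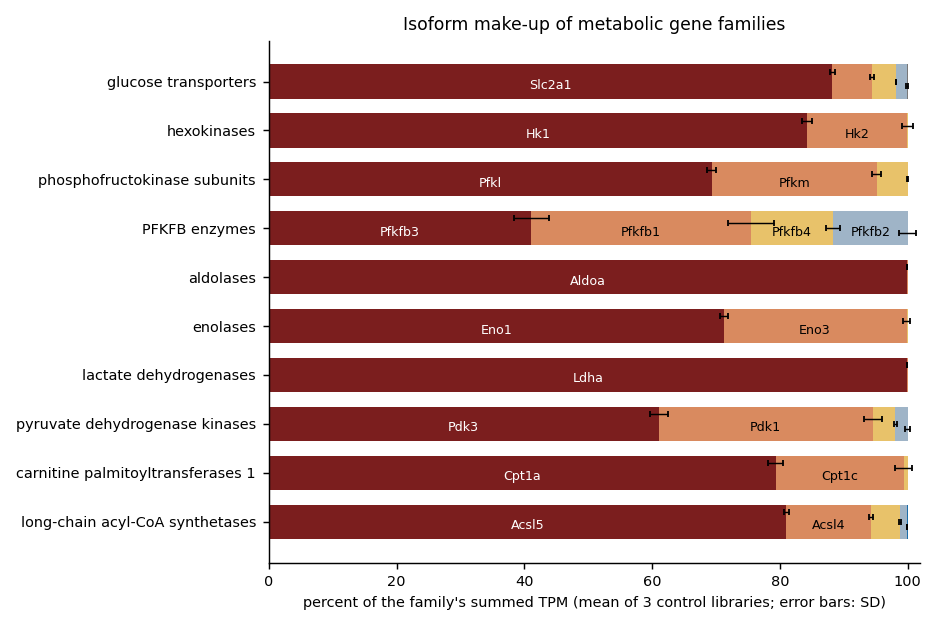
Percent of the summed TPM (horizontal axis) that each gene holds in 10 metabolic families, as the mean of 3 control libraries with SD as error bars at the right end of each segment; genes above 8% are named. Aldoa and Ldha each hold 99.9% of their family, and Pfkfb3 and Pfkfb1 share most of theirs at 41.1% and 34.4%.

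Of the pyruvate and TCA genes, Mdh2 stood at 580 ± 11.4 TPM, Cs, the citrate synthase, at 470 ± 7.58, Sdhd at 329 ± 7.59 and Dlst at 284 ± 6.21. Pdk3 held 61.0 ± 1.41% and Pdk1 33.5 ± 1.46% of the TPM of the kinases that switch off pyruvate dehydrogenase. Pck1, the cytosolic gluconeogenic enzyme, was the lacking member with 0 reads, while its mitochondrial relative Pck2, named after its value was seen, stood at 96.5 ± 5.78. In the pentose phosphate list Taldo1 stood at 340 ± 2.97, Idh2 at 250 ± 4.95, G6pdx, the entry enzyme, at 200 ± 4.31, Mthfd1 at 199 ± 1.78 and Tkt at 135 ± 2.40. Serine synthesis and folate genes led the amino acid list, with Psat1 at 426 ± 11.2, the glutamine transporter Slc38a2 at 418 ± 27.7, Shmt2 at 316 ± 12.0, Phgdh at 192 ± 4.97 and Mthfd2 at 172 ± 3.41. Slc38a5, Slc7a8, Slc1a3 and Arg1 had 0 reads.

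Fatty acid handling was uneven. Of 28 uptake and trafficking genes 13 were expressed, or 46.4% beside 49.5% of protein-coding genes, with a median of 0.771 TPM. Acsl5, which activates long-chain fatty acids, was the 1 abundant member at 377 ± 6.78 and held 81.0 ± 0.360% of the TPM of its family. Acsl4 stood at 61.9 ± 1.95, the lipase Pnpla2 at 56.3 ± 2.20 and the transporter Slc27a1 at 34.1 ± 0.660. The fatty acid carriers of capillary endothelium were low, Fabp4 at 1.08 ± 0.190 and Fabp5 at 0.464 ± 0.0795 TPM. Lpl, the gene added in the libraries not used here, had 1, 1 and 6 reads. For mitochondrial oxidation Cpt1a, the entry enzyme, stood at 66.5 ± 0.906 and held 79.3 ± 1.2% of the TPM of its family, and Cpt1c stood at 16.8 ± 1.39. Etfa stood at 153 ± 1.33, Acadl at 92.4 ± 2.44, Eci1 at 73.9 ± 2.60, Acads at 72.2 ± 2.63 and Hadha at 70.0 ± 1.26. Acadvl, named after its value was seen, stood at 64.2 ± 0.706 or 33.1 with reads of both orientations. Ppara, the fatty acid receptor that drives this programme in liver, had 1 read.

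Of the 13 messenger RNA genes of the mitochondrial genome 7 were expressed, and these 7 made up 5.65 ± 0.111% of TPM. The highest of the 7 were mt-Cytb at 15977 ± 437 and mt-Co1 at 15888 ± 351 TPM, subunits of the respiratory chain. The share and the ranking do not cover the other 6, mt-Co2, mt-Atp8, mt-Atp6, mt-Co3, mt-Nd3 and mt-Nd4l. These lie side by side and had 0 sense reads in each library. Nuclear copies of parts of this stretch on chromosome 1 had 1 to 8 reads each. The 0 counts are therefore listed values, and whether they reflect the counting was not tested. The gene mt-Nd6, on the other strand, had 518, 507 and 1010 reads, with control 3 the highest, at 160 ± 71.7 TPM, or 4291 with reads of both orientations. Forward reads numbered 54753 beside 2035 sense reads over the 3 libraries. The value of 4291 therefore comes mostly from reads of the opposite orientation.

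All 34 genes of the proliferation list were expressed and 22 (64.7%) were abundant, with a median of 177 TPM. Among protein-coding genes 49.5% were expressed and 8.53% abundant, with a median of 1.03 TPM. The list also holds cell cycle inhibitors and tumour suppressors such as Cdkn1a, Trp53 and Rb1. Ccnd1, the cyclin of the first growth phase, stood at 1861, 1784 and 1786 TPM and held 96.4 ± 0.0876% of the TPM of the D cyclins. Rrm2, which makes deoxynucleotides, stood at 557 ± 32.4, Pcna at 434 ± 3.83 and Top2a at 400 ± 2.43. The cell cycle inhibitor Cdkn1a stood at 562 ± 13. Chosen after their values were seen, Trp53, which induces Cdkn1a and which large T antigen binds, stood at 205 ± 2.29, and Rb1, another partner of large T antigen, at 6.61 ± 0.151.

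Most markers of other pancreatic and vascular cells were low or lacking, with Cd68, Krt18, Cpb1 and Krt19 the highest exceptions in these lists. Of 20 islet endocrine genes none was expressed and 17 (85%) were lacking, beside 40% of protein-coding genes. Their summed level was 1.49 ± 0.222 TPM, and 1.69 in the highest library, with Ins1, Ins2, Sst, Chga and Iapp at 0 reads and Gcg at 1. Of 17 exocrine and epithelial genes 4 (23.5%) were expressed, beside 49.5% of protein-coding genes. Their sums were between 102 and 104 TPM and came mostly from Krt18, a keratin, at 73.3 ± 2.46. Cpb1, a pancreatic carboxypeptidase, stood at 13.1 ± 0.442, Krt19 at 12.9 ± 1.22, Cftr at 1.12 ± 0.136 and Prss2 at 0.891 ± 0.124, while Cpa1, Cela2a, Epcam and Cdh1 were at 0 reads. Of 18 macrophage and blood genes 2 (11.1%) were expressed, beside the same 49.5%. Their sums were between 187 and 202 TPM, of which Cd68, a lysosomal protein, gave 194 ± 8.67. Fcer1g stood at 2.08 ± 0.498, and Adgre1, Csf1r, C1qa, C1qb and Tyrobp were at 0.

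Of 19 mural and fibroblast genes 2 (10.5%) were expressed, beside 49.5% of protein-coding genes, with sums between 3.68 and 3.91 TPM. Pdgfra and Notch3 stood at 1.24 ± 0.131 and 1.21 ± 0.0961, and Pdgfrb at 1.01 ± 0.0919 was under 1 TPM in at least 1 library. The smooth muscle genes Acta2, Myh11, Tagln, Des and Cnn1 together came to 0.214 ± 0.128 TPM, and Rgs5, Dcn and Lum had 0 reads. Of 10 adipocyte genes 2 (20%) were expressed, beside the same 49.5%. These were Pparg at 3.18 ± 0.340 and Lipe at 1.82 ± 0.123, and the sums of the list were between 4.77 and 5.72. Of 13 pigment and Schwann cell genes 3 (23.1%) were expressed, also below that share, among them Pmel at 1.46 ± 0.217 and Mitf at 1.27 ± 0.230. The sums of this list were between 4.58 and 4.89, with Tyr, Dct, Mlana and Sox10 at 0. In bulk libraries, few cells with a high level and many cells with a low level cannot be told apart.

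Of 1570 Y chromosome genes 1568 were lacking and 1 was expressed, Erdr1, named after its value was seen, at 42.0 ± 3.11 TPM. Xist, the RNA that coats the inactive X chromosome, had 51219, 49280 and 44402 reads, a mean of 327 ± 19.8 TPM, while Ddx3y, Uty and Eif2s3y had 0 reads and Kdm5d had 1. Other genes without a protein product that had a high TPM included Gm42418 at 3937 ± 76.3, which was listed at 0 with reads of both orientations. Mir6236 stood at 3331 ± 137 TPM with 10125 reads over the 3 libraries. Its TPM rests on division by an exonic length of 123 bases. RNAs without a poly(A) tail are kept by a total RNA kit, and these libraries held 56 reads of Rn7sk, 42 of Rmrp, 29 of Rpph1 and 4 of Terc over the 3 libraries. Rmrp stood at 6.25 ± 1.03 TPM, or at 3.50 with reads of both orientations. Of 70 histone cluster genes, whose main transcripts also have no tail, 9 were expressed and 32 were lacking, with Hist1h4i the highest at 20.5 TPM. The cause of these levels was not tested.

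Differences between the 3 libraries were small beside the differences between genes. Of 13079 genes with a mean of at least 10 reads, 522 (3.99%) varied beyond counting error (chi-square test of the counts, adjusted over all genes by Benjamini-Hochberg, threshold 0.05), and the median coefficient of variation was 3.77%. The common biological coefficient of variation estimated by edgeR was 2.01%. The count was 256 without control 1, 456 without control 2 and 146 without control 3. Among genes with at least 100 reads in mean the largest variation left after subtracting that of counting was that of mt-Nd6, at 45.1%, followed by Gm23935 at 35.1% and Slc25a42 at 22.9%. Slc25a42, a mitochondrial carrier, had 151, 128 and 88 reads. The others among the first 10 were Gm43481, Gm5835, Apc2, Sirt4, Zfp979, Ccnjl and Steap3, at 18.3 to 21.0%, of which only Apc2 and Sirt4 passed the chi-square test. Of the 7 mitochondrial messenger RNAs with reads, 7 were among the 522, as were 8 of 28 identity genes tested, Cdh5, Thbd and Plvap among them. For Pecam1 the coefficient of variation was 0.303% and counting alone gave 0.363%. Cdh5 varied by 1.73% and Plvap by 3.09%, so that both passed this test at high depth with small differences. Other genes that passed it, such as mt-Nd6 and Gm23935, varied by far more.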

How the data were processed

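Per the submitters' processing notes, STAR and the build mm10 were used for alignment by the authors. Their versions, the annotation release, the counting settings and the treatment of reads with several hits were not given in the sources used here. Per the file headers, the deposited counts are unnormalized reads per gene, for both orientations together and for each orientation, and the deposited TPM values are scaled to 1000000 per library over all genes. Reverse orientation, the sense of this kit, held 97.0 to 97.1% of oriented reads and was used. TPM recomputed from counts and exonic length differed from the authors' TPM by at most 1.13e-10. Of 49585 gene identifiers 49326 were found in GENCODE vM21, which gave gene types, and 45128 had the same coordinates. TPM divides by all annotated exons, so genes with long unused exons read low. Genes with near-identical copies, and overlapping genes, are uncertain.

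The cells and the 43 gene lists (1074 entries, 963 genes) were chosen with earlier results of these data known. Older symbols replaced 8 list names, and 1 name was not found. Named genes are the 5 markers, the highest 20 protein-coding nuclear genes and highest 10 of other types, in each list the 5 highest and up to 5 lacking members, all members of small families, and the 10 genes varying most. Some genes that this rule takes are not reported here. Any other gene named was picked with its value known. There is 1 group, so no conditions were compared. Means are given ± SD over 3 libraries. Libraries were compared by a chi-square test of each gene's counts, tested on simulated data, and by the dispersion of edgeR 4.0.16 (R 4.3.3). The mean chi-square per degree of freedom between pairs was 1.66 to 2.29, so no 2 libraries agreed within counting error. Python 3.11.15, pandas 2.3.3 and scipy 1.17.1 were used. Other thresholds, denominators and orientations, and leaving out each library, were tried. Promoter sequences are from RefSeq.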

Additional observations from a re-analysis of the deposited data

Results flagged for a closer look

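Some genes had reads almost only in the orientation that was not used. In 364 genes at most 3 sense reads over the 3 control libraries stood beside at least 100 forward reads in each of them. In all, 32374 of 49585 genes (65.3%) had at most 3 sense reads. Many of the 364 are annotated as antisense genes, which lie opposite another gene, whereas Snx22 and 1700022I11Rik, named next, are protein-coding. The highest was Snx22, with 2 sense reads and 3612, 3743 and 3634 forward reads. Gm26762 had 2 sense reads and 3370, 3279 and 3224 forward reads, and 1700022I11Rik had 2 and 2725, 2858 and 2580. Reads of a gene on the other strand that overlaps them were not separated from these.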

How the results depend on the processing

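Over the alternative thresholds, orientations and libraries, the number of genes expressed was between 11197 and 13300, within 1.5 times 12238. With a threshold of 0.5 TPM, 5 lymphatic genes were expressed in place of 3. With a threshold of 2 TPM, 1 macrophage and blood gene, 0 mural and fibroblast genes, 1 adipocyte gene and 0 pigment and Schwann cell genes were expressed, in place of 2, 2, 2 and 3. With reads of both orientations, 1 islet endocrine gene and 1 mural and fibroblast gene were expressed, in place of 0 and 2. All other list counts stayed within 1.5 times. The count of genes that varied between libraries, 522, was between 146 and 456 when 1 library was left out, 515 with TMM library sizes and 428 with no filter on low counts. Levels of the 593 named or listed genes with at least 1 TPM changed by 0.718 to 1.29 times when 1 library was left out. TPM over protein-coding nuclear genes alone were 1.09 times as high, and 9 genes moved by more than 1.5 times with reads of both orientations. No paired analysis was possible because there is 1 group. Counts near 0 limit statements on lacking genes to 3 reads, and intervals cover counting error only.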
